A study of Mus musculus with 5 samples.

Results

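Matrix metalloproteases (MMPs), the secreted metalloproteases of the ADAMTS family and their inhibitors, the TIMPs, were followed through the interrupted reprogramming of mouse type II alveolar epithelial cells (AEC-II). The genes were chosen by name alone: every gene whose symbol is Mmp, Adamts or Timp followed by a number (for the TIMPs, Timp1 to Timp4), measured by a probe that carries exactly 1 gene symbol. This gave 44 genes of the 22180 measured in this way, made up of 22 MMP, 18 ADAMTS and 4 TIMP genes. A gene with more than 1 such probe was represented by its brightest, judged by the mean of the arrays. Mmp15 and Adamts2 had no such probe and are not analysed here.

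The samples came from the lungs of adult R26-rtTA/Col1a1::tetO-4F2A mice, in which doxycycline (Dox) switches on a cassette of 4 factors, Oct4 and Sox2 with Klf4 and c-Myc. Every group carried both transgenes, the groups without Dox included. Day0 was AEC-II sorted as CD45neg CD31neg EpCAMpos cells. 2WND was the same sorted cells after 2 weeks of culture without Dox, grown in Matrigel on filter inserts beside mouse embryonic fibroblast feeder cells in an epithelial medium. 2WND+2W+D had 2 further weeks with Dox after a passage, in an embryonic stem cell medium. 2WND+2W+D+2W-D had a last 2 weeks without Dox after another passage, in a medium whose type is not stated. iPS was an induced pluripotent stem cell sample labelled as from the same adult lung, and its derivation is not given in the sources used here. Each condition was measured on 1 Affymetrix array. RNA of 3 separate samples per group was taken in equal amounts, and whether these were pooled on the array is not stated. Whether feeder cells were removed before RNA extraction is not stated either.

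MMPs are zinc endopeptidases that are made as inactive proenzymes and together cut most proteins of the extracellular matrix. ADAMTS proteases are secreted relatives that carry thrombospondin repeats, and several of them cut the large proteoglycans versican and aggrecan. TIMPs bind the active site of MMPs, and TIMP3 also inhibits ADAMTS proteases. In the lung these enzymes are known for their part in alveolar development, repair after injury, emphysema and fibrosis, and they are made by stromal cells, macrophages and neutrophils as well as by epithelium.

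All values are expression values on the log2 scale, so a difference of 1 is 2-fold. With 1 array per condition no difference could be tested, and differences are described against the 2-fold mark and against the same count over all 22180 genes. The median of all values on the 5 arrays, 4.78, was taken as a floor. Of the 44 genes, 36 reached it on at least 1 array and 8 on none. Where the lower of both arrays was under the floor, the fold was computed from the floor and is given as at least that value. Probes differ in their response, so that values are compared between arrays for 1 gene and not between genes. Fewer cells of a type and less RNA per cell cannot be told apart in these bulk samples.

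The arrays were closely matched in scale, with medians between 4.71 and 4.83. The labels were checked against marker genes. AEC-II markers had a median of 12.71 in Day0, 11.08 in 2WND, 10.37 in 2WND+2W+D, 11.03 in 2WND+2W+D+2W-D and 5.29 in iPS. The 8 pluripotency markers had a median of 8.86 in iPS and 4.89 in Day0. Markers of other cell types were present in the cultures. The 12 fibroblast markers had medians of 5.02 in Day0, 9.30 in 2WND, 10.26 in 2WND+2W+D, 9.48 in 2WND+2W+D+2W-D and 7.82 in iPS. The 8 macrophage markers had medians of 4.72 in Day0, 9.40 in 2WND, 6.45 in 2WND+2W+D, 8.97 in 2WND+2W+D+2W-D and 4.72 in iPS. The 8 leukocyte markers had medians of 4.97 in Day0, which was sorted as CD45neg, 8.68 in 2WND, 7.16 in 2WND+2W+D, 8.26 in 2WND+2W+D+2W-D and 5.29 in iPS. The median of the endothelial markers, though not every marker, was highest in Day0, although it was sorted as CD31neg. It was 6.92 in Day0, 4.83 in 2WND, 4.87 in 2WND+2W+D and 4.75 in 2WND+2W+D+2W-D. Of the 7 that reached the floor 5 were at least 2-fold lower in 2WND than in Day0. In iPS 3 were lower than in Day0 by that much and 1 was higher, Pecam1, at 8.47 in iPS and 6.85 in Day0. Compared with 2WND, 4 of the 7 were at least 2-fold higher in iPS (3 when counted from the floor) and 0 were lower. Tek was highest with Dox, at 6.53 in 2WND+2W+D and 6.14 in Day0. The part of the endothelial markers in the comparisons with Day0 and with iPS was not tested. These lists are given again beside the genes they moved with.

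Many MMPs, some ADAMTS genes and all TIMPs were higher in culture without Dox than in the sorted cells. In 2WND compared with Day0, 20 of the 44 genes were at least 2-fold higher (45.5%) and 0 were lower by that much, while over all genes 6.36% were higher and 3.78% lower. The median difference was 0.63 over the 44 genes and -0.02 over all genes. The 20 genes were 11 of 22 MMPs, 5 of 18 ADAMTS and all 4 TIMPs. Among them Mmp2 was higher by 94.6-fold, Mmp8 by at least 84.9-fold and Mmp3 by at least 49.7-fold. Adamts3 and Mmp16 were under 2-fold when counted from the floor. Of the fibroblast markers 12 of 12, and of the macrophage markers 8 of 8, were at least 2-fold higher in the same comparison. Counted from the floor these were 11 fibroblast and 7 macrophage markers. Their part in the result was not tested.

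With Dox some genes lay higher and a few lower than in the culture before it. In 2WND+2W+D compared with 2WND, 15 of the 44 genes were at least 2-fold higher (34.1%) and 4 were lower by that much (9.09%), against 4.96% and 5.37% of all genes. The median difference was 0.40 over the 44 genes and -0.03 over all genes. Of the 15 genes 8 were ADAMTS, 6 were MMPs and 1 was Timp1, and Adamts16 among them was under 2-fold when counted from the floor. The 4 lower genes were Mmp8, Timp4, Mmp27 and Adamts15. Of the 12 fibroblast markers 7 were higher, of the 8 smooth muscle markers 7 were higher, and of the 8 macrophage markers 5 were lower. Their part in the result was not tested. The medium and the passage also differed between these cultures, and Dox, medium, passage and culture time cannot be told apart.

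After Dox withdrawal 17 of the 44 genes were at least 2-fold lower in 2WND+2W+D+2W-D than in 2WND+2W+D (38.6%) and 6 were higher by that much (13.6%), against 4.47% lower and 5.72% higher among all genes. The median difference was -0.39, beside 0.01 over all genes. Adamts16 was again under 2-fold when counted from the floor. Of the 8 smooth muscle markers 7 were lower, of the 12 fibroblast markers 5 were lower, and of the 8 macrophage markers 7 were higher, and their part was not tested. The withdrawn culture had also been passaged again and cultured for longer, and the type of its medium is not stated. Dox withdrawal, passage and culture time cannot be told apart. Set against 2WND, the withdrawn culture had 0 genes higher by that much and 1 lower, Mmp8 at 2.31-fold, where 0.672% of all genes were higher and 0.379% lower. The comparisons with Dox share arrays, so the values are set side by side in the plot of differences from 2WND and no overlap between the comparisons is counted.

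**Figure D1:**
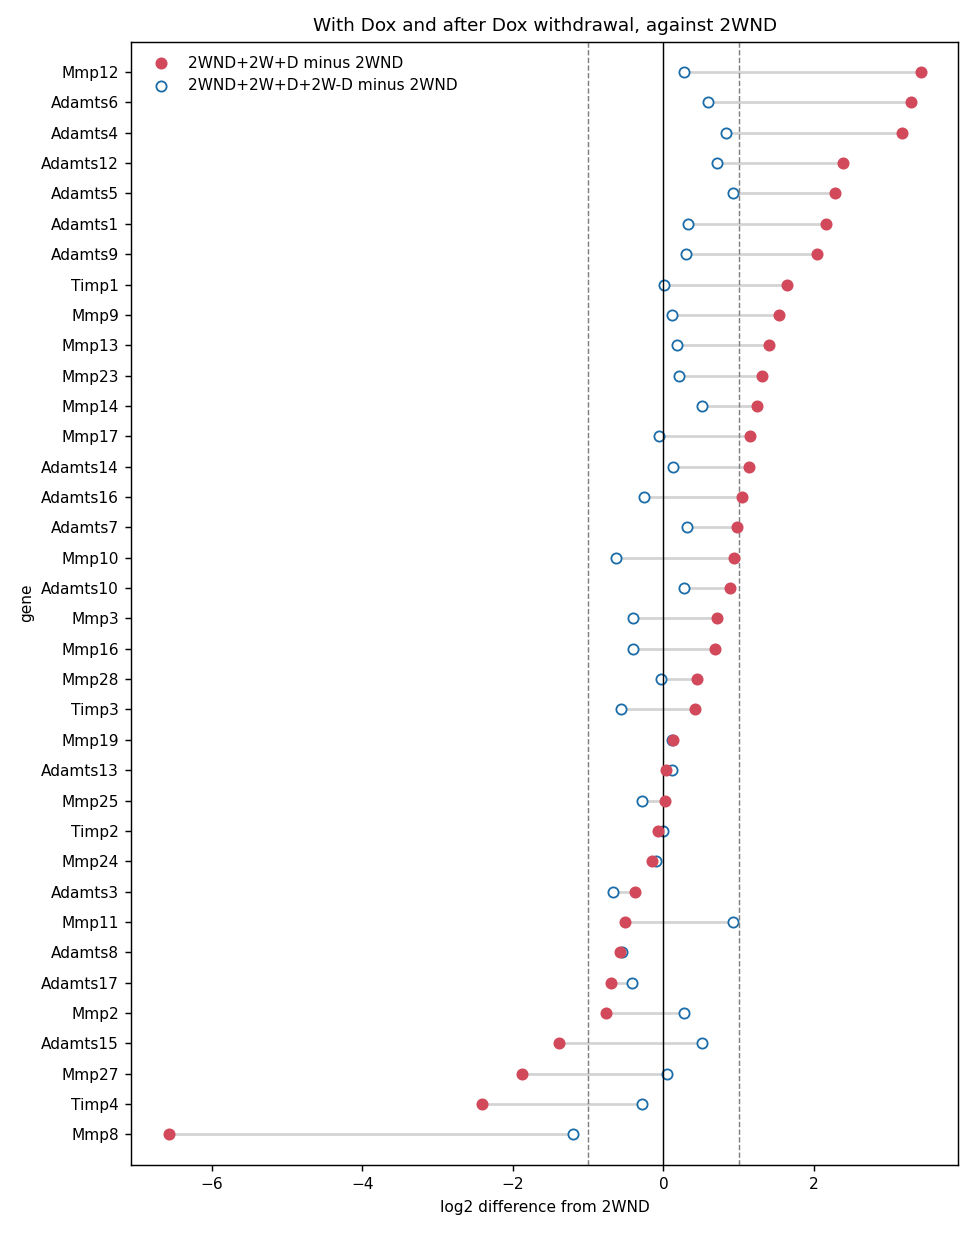
Log2 difference from 2WND (horizontal axis) of the 36 genes that reached the floor, with Dox (filled red, 2WND+2W+D minus 2WND) and after its withdrawal (open blue, 2WND+2W+D+2W-D minus 2WND), 1 array per condition. Dashed lines mark 2-fold. Values under the floor are plotted as measured. With Dox, Mmp12 was 10.7-fold higher and Mmp8 at least 84.9-fold lower than in 2WND. After withdrawal every gene plotted but Mmp8 lay within 2-fold of 2WND, where 0.672% of all genes were higher and 0.379% lower by that much.

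**Figure D2:**
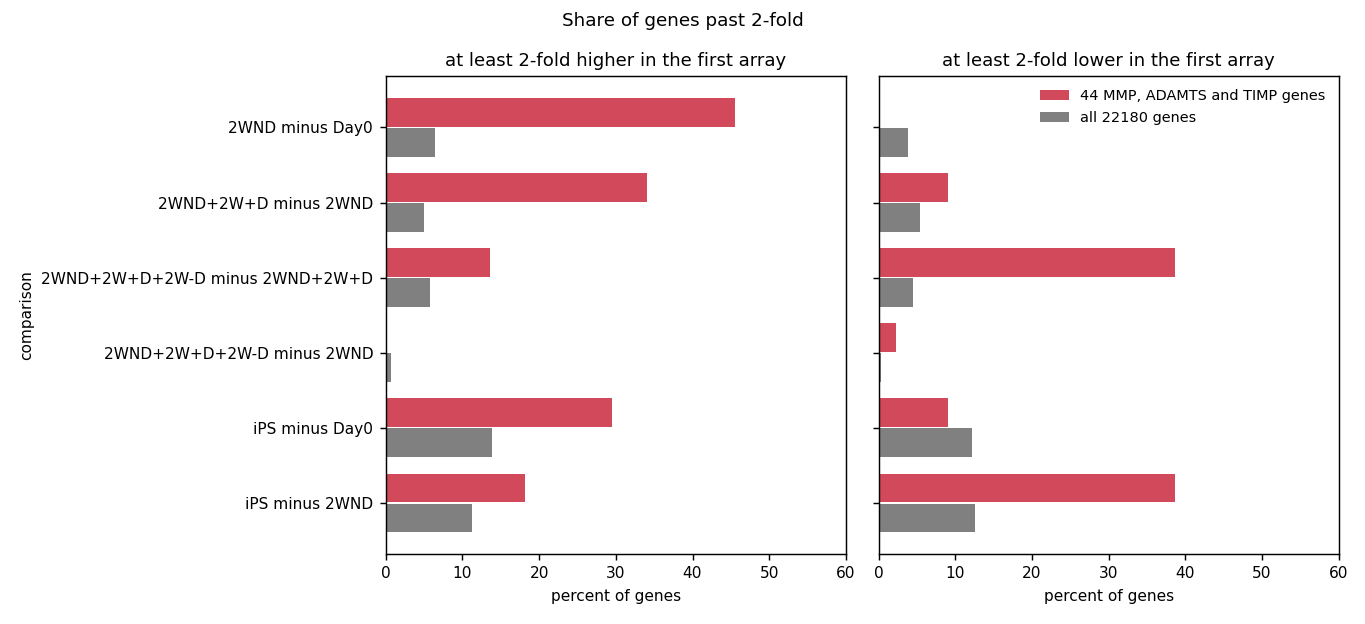
Percent of genes at least 2-fold higher or lower in each comparison (horizontal axis, percent), for the 44 MMP, ADAMTS and TIMP genes and for all 22180 genes, with no filter on low values. In 2WND against Day0, 45.5% of the 44 genes were higher, beside 6.36% of all genes.

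The gelatinases cut denatured collagen and the collagen of basement membranes, and only Mmp2 was 2-fold higher in 2WND than in Day0. Mmp2, gelatinase A, was 5.34 in Day0, 11.90 in 2WND, 11.14 in 2WND+2W+D, 12.18 in 2WND+2W+D+2W-D and 9.20 in iPS. It was thus 94.6-fold higher in 2WND than in Day0 and the 3 cultures differed by at most 2.06-fold, the withdrawn culture being the higher and the Dox culture the lower. Mmp9, gelatinase B, was 5.09 in Day0, 4.97 in 2WND, 6.50 in 2WND+2W+D, 5.08 in 2WND+2W+D+2W-D and 7.13 in iPS. It was 2.89-fold higher with Dox than in 2WND and 2.69-fold lower after withdrawal than with Dox, and lay close to the floor on the Day0, 2WND and withdrawn arrays.

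The membrane-type protease Mmp14 activates the proenzyme of Mmp2 at the cell surface in a complex with Timp2. Mmp14 was 8.30 in Day0, 11.00 in 2WND, 12.24 in 2WND+2W+D, 11.51 in 2WND+2W+D+2W-D and 8.97 in iPS. Timp2 was 6.14 in Day0, 9.07 both in 2WND and in 2WND+2W+D+2W-D, within 0.07 of that in 2WND+2W+D, and 7.30 in iPS. All 3 genes were higher in 2WND than in Day0, with log2 differences of 6.56 for Mmp2, 2.70 for Mmp14 and 2.92 for Timp2. With Dox they parted: Mmp14 was 1.24 higher than in 2WND, Timp2 differed by -0.07 and Mmp2 by -0.76. Fibroblast markers, whose medians were 9.30 in 2WND and 5.02 in Day0, were higher alongside these genes, and their part was not tested.

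The stromelysins have broad matrix substrates, and Mmp3 also activates other MMPs. Mmp3, stromelysin-1, was 4.42 in Day0, 10.42 in 2WND, 11.13 in 2WND+2W+D, 10.01 in 2WND+2W+D+2W-D and 10.44 in iPS. It was at least 49.7-fold higher in 2WND than in Day0 and stayed above 10 on the other arrays, iPS included. Mmp10, stromelysin-2, was 5.16 in Day0, 5.87 in 2WND, 6.80 in 2WND+2W+D, 5.23 in 2WND+2W+D+2W-D and 7.28 in iPS. Its only 2-fold step between successive samples was at withdrawal, where it was 2.96-fold lower than with Dox. Mmp11, stromelysin-3, which is activated inside the cell by furin, was 6.73 in Day0, 7.75 in 2WND, 7.24 in 2WND+2W+D, 8.67 in 2WND+2W+D+2W-D and 6.23 in iPS. Unlike the other stromelysins it was highest after withdrawal, 2.70-fold higher than with Dox. A further probe of Mmp11 was also highest there but within 2-fold of the Dox array, at 7.49 in 2WND+2W+D+2W-D and 6.89 in 2WND+2W+D.

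The collagenases, which cut native fibrillar collagen, were both higher in 2WND than in Day0 and went opposite ways with Dox and after its withdrawal. Mmp8, collagenase-2, was 4.36 in Day0, 11.19 in 2WND, 4.62 in 2WND+2W+D, 9.98 in 2WND+2W+D+2W-D and 4.19 in iPS. It was at least 84.9-fold higher in 2WND than in Day0, at least 84.9-fold lower with Dox than in 2WND, and at least 36.8-fold higher after withdrawal than with Dox. On the Day0, Dox and iPS arrays it lay under the floor. Mmp13, collagenase-3, the main interstitial collagenase of rodents, was 2.70 in Day0, 7.42 in 2WND, 8.83 in 2WND+2W+D, 7.60 in 2WND+2W+D+2W-D and 7.33 in iPS. It was at least 6.22-fold higher in 2WND than in Day0, 2.65-fold higher with Dox than in 2WND and 2.33-fold lower after withdrawal than with Dox.

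Mmp8 is best known from neutrophils, where it is stored in granules. Of the 8 neutrophil markers 3 reached the floor in 2WND: S100a8 at 7.57, Cxcr2 at 5.78 and Ltf at 10.48. Ly6g, Elane, Mpo, Camp and S100a9 were under the floor there, between 3.68 and 4.58. S100a8 was 2.83 in Day0, 7.57 in 2WND, 3.85 in 2WND+2W+D, 5.99 in 2WND+2W+D+2W-D and 3.58 in iPS, and Ltf, which epithelia also make, was 6.65 in Day0, 10.48 in 2WND, 7.82 in 2WND+2W+D, 10.11 in 2WND+2W+D+2W-D and 4.29 in iPS. Both were thus high in 2WND and after withdrawal, as Mmp8 was. Cxcr2 was 4.90 with Dox and 4.88 after withdrawal, and so was not higher again as S100a8 and Ltf were. Ly6g, Elane, Mpo, Camp and S100a9 were under the floor with Dox and after withdrawal too. The macrophage markers were also higher and lower on the same arrays as Mmp8. In 2WND 8 of 8 were at least 2-fold higher than in Day0, and 7 when counted from the floor. With Dox 5 of 8 were lower, and after withdrawal 7 of 8 were higher. Among them Chil3, a secreted chitinase-like protein of alveolar macrophages, was 5.47 in Day0, 11.97 in 2WND, 4.46 in 2WND+2W+D, 10.18 in 2WND+2W+D+2W-D and 4.25 in iPS. The part of either list in the values of Mmp8 was not tested.

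Mmp12, the macrophage metalloelastase, is named for the cells it was found in and degrades elastin. It was 4.83 in Day0, 5.89 in 2WND, 9.31 in 2WND+2W+D, 6.16 in 2WND+2W+D+2W-D and 6.75 in iPS. With Dox it was 10.7-fold higher than in 2WND, the highest fold of the 44 genes in that direction, and after withdrawal 8.85-fold lower than with Dox. Macrophage markers ran the other way, with medians of 6.45 in 2WND+2W+D and 9.40 in 2WND, and 5 of 8 were at least 2-fold lower. Smooth muscle markers had medians of 9.35 in 2WND+2W+D and 5.89 in 2WND, and fibroblast markers 10.26 and 9.30. The part of these lists in the values of Mmp12 was not tested.

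**Figure D3:**
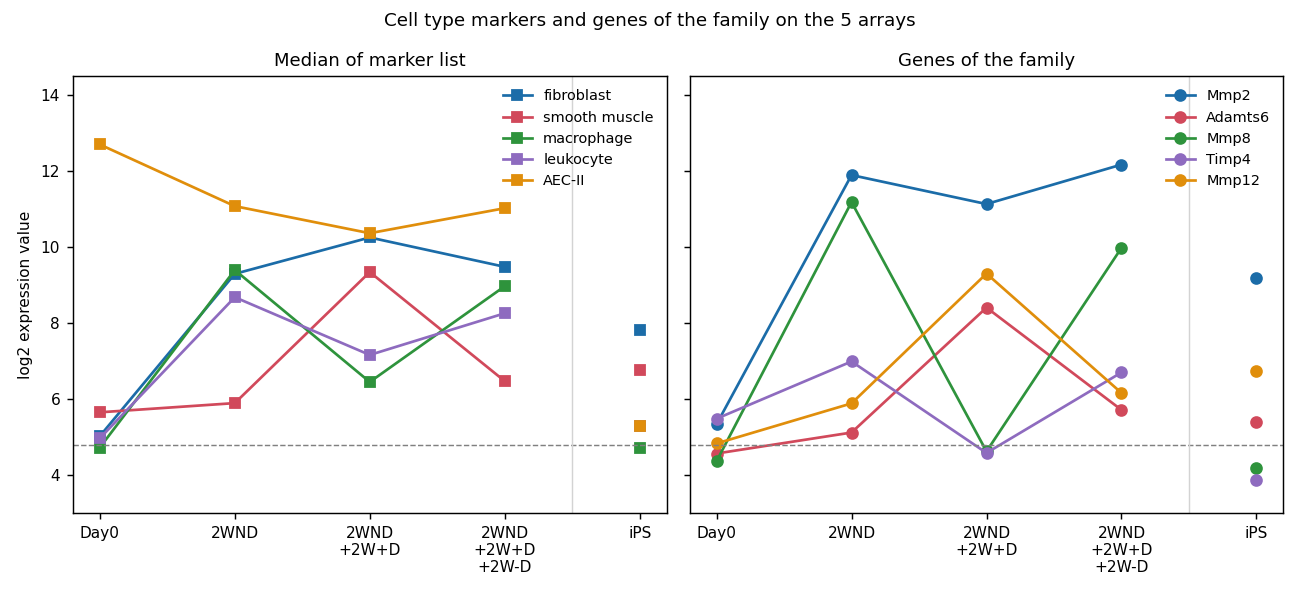
Median log2 expression value of the cell type marker lists on the 5 arrays, 1 array per condition, beside genes of the family that moved with or against them. The macrophage list had medians of 6.45 in 2WND+2W+D and 9.40 in 2WND, where Mmp12 was 9.31 in 2WND+2W+D and 5.89 in 2WND. In iPS the leukocyte point lies behind that of AEC-II.

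Mmp19 and Mmp23 have less studied substrates. Mmp19 was 5.40 in Day0, 7.81 in 2WND, 7.93 in 2WND+2W+D, 7.92 in 2WND+2W+D+2W-D and 5.44 in iPS. It was 5.30-fold higher in 2WND than in Day0, and the 3 cultures lay within 0.12 of each other. Tmem198b, which overlaps it, was 9.19 in 2WND+2W+D and 7.40 in 2WND, a step that Mmp19 did not share. Mmp23, which has its own cysteine-rich domain in place of a hemopexin domain, was 6.97 in Day0, 8.89 in 2WND, 10.20 in 2WND+2W+D, 9.09 in 2WND+2W+D+2W-D and 7.38 in iPS. It was 3.78-fold higher in 2WND than in Day0 and 2.48-fold higher with Dox than in 2WND.

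**Figure D4:**
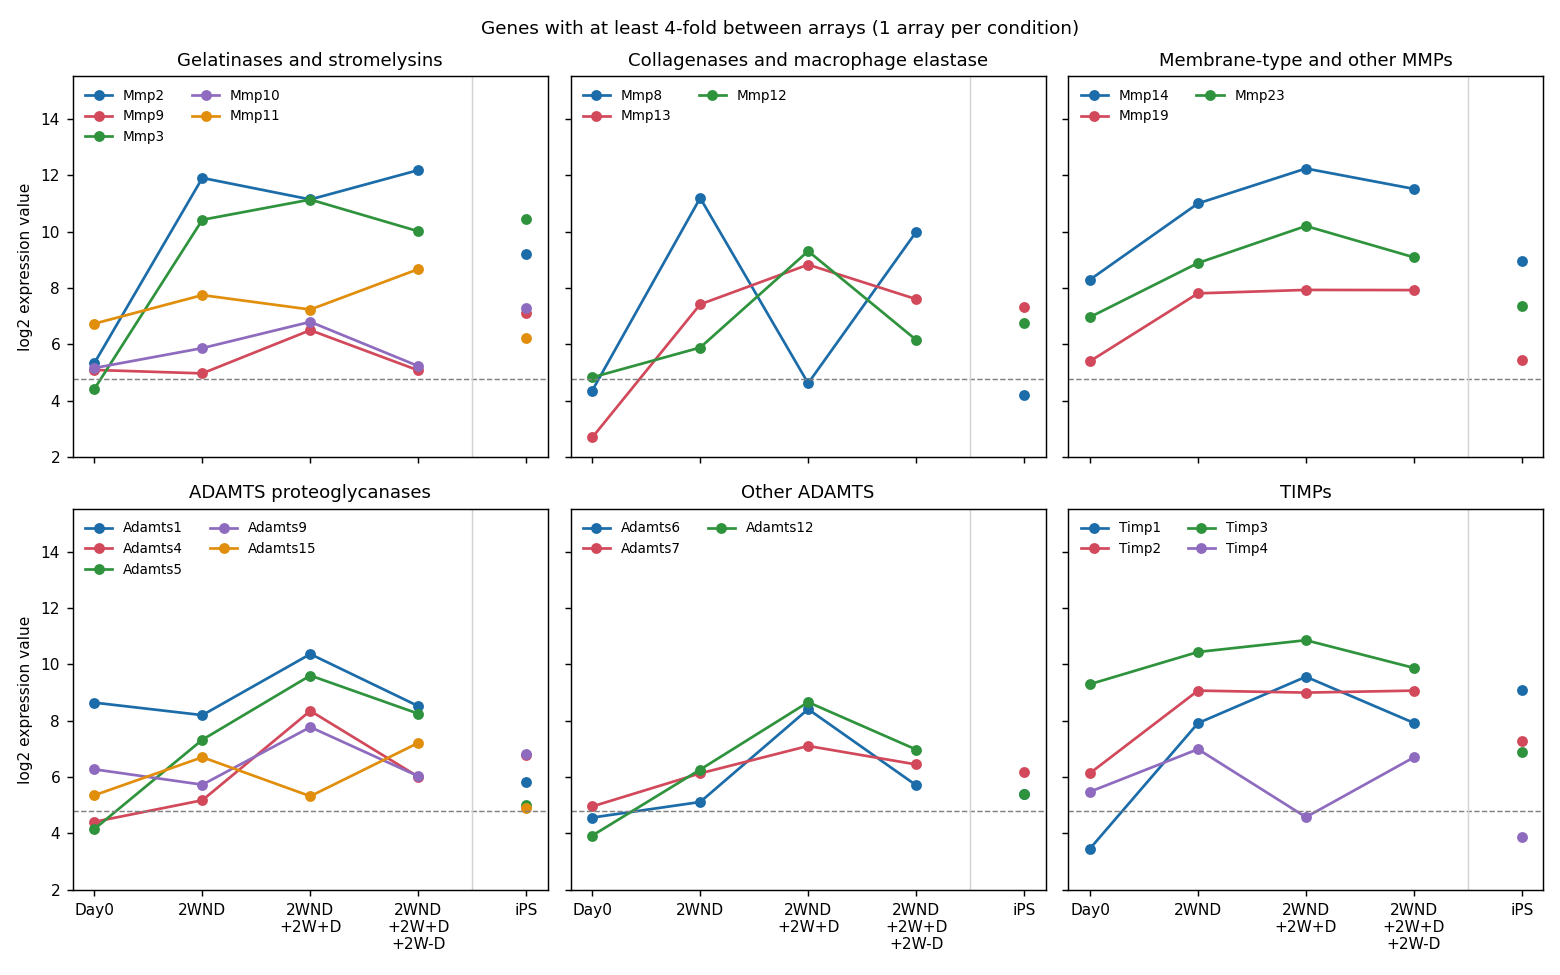
Log2 expression value of the 23 genes whose values, raised to the floor of 4.78 (dashed), spanned at least 4-fold between arrays, drawn by role. Each point is 1 array and lines join the samples of the culture series. Mmp8, Adamts15 and Timp4 were lower in 2WND+2W+D than on the arrays before and after it, and Mmp12, Adamts4 and Adamts6 were higher.

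A run of 10 MMP genes lies on chromosome 9, between 7272514 and 7699585 in GRCm38.p6, in the order Mmp13, Mmp12, Mmp1b, Mmp3, Mmp1a, Mmp10, Mmp8, Mmp27, Mmp20 and Mmp7. They did not move as a block. In 2WND compared with Day0, 5 of the 10 were at least 2-fold higher, beside 6.36% of all genes. With Dox Mmp13 and Mmp12, at one end, were higher than in 2WND, and Mmp8 and its neighbour Mmp27 were lower. Mmp3 and Mmp10, between these pairs, were 0.72 and 0.93 higher with Dox, short of 2-fold. Mmp27 was 4.93 in Day0, 6.53 in 2WND, 4.65 in 2WND+2W+D, 6.57 in 2WND+2W+D+2W-D and 4.69 in iPS, high in 2WND and after withdrawal as Mmp8 was. The annotated transcript Gm31751 spans both Mmp8 and Mmp27. Mmp1a, Mmp1b, Mmp20 and Mmp7 did not reach the floor on any array. The genes on both sides stayed level across the 3 cultures, Dcun1d5 between 9.05 and 9.32 and Tmem123 between 9.98 and 10.01.

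**Figure D5:**
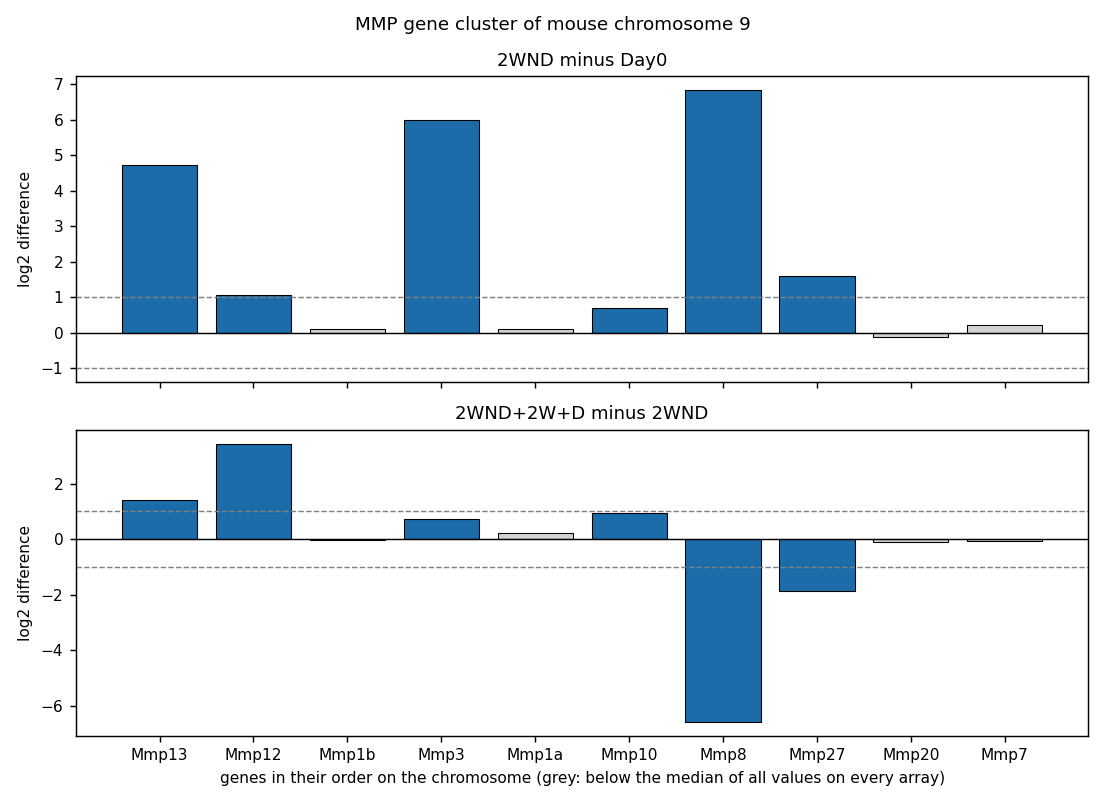
Log2 differences of the 10 MMP genes of the chromosome 9 cluster in genome order (horizontal axis, not to scale), 2WND minus Day0 above and 2WND+2W+D minus 2WND below, 1 array per condition. Grey bars are genes under the floor on every array, and dashed lines mark 2-fold. Values under the floor are plotted as measured. With Dox, Mmp12 was 10.7-fold higher than in 2WND and Mmp8 at least 84.9-fold lower, with Mmp3 and Mmp10 between them within 2-fold.

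Promoters of this cluster are shown because neighbouring genes went opposite ways. Many MMP promoters carry a binding element for the AP-1 factors (Fos and Jun proteins) close to the start, and RefSeq windows were searched for TGAGTCA and for TGACTCA, which is the same element read on the other strand. The search covered the 250 bases before each annotated start, and the element and the cluster were chosen after the values were seen. Of the 44 genes 30 had a RefSeq window. The rest, all outside the cluster, were not searched, among them Mmp2, Mmp9, Mmp19, Adamts4, Adamts5, Adamts6 and Adamts15. The element was found in 7 of the 10 cluster genes (70.0%), in 0 of the 20 other genes with a window and in 1395 of 27025 mouse genes with a window (5.16%). The 100 bases before the start are printed for the 6 cluster genes that reached the floor, 5′ to 3′ on the gene's strand from GRCm38.p6 (RefSeq), with the element in capitals. They run chr9:7272414-7272513 for Mmp13, chr9:7347274-7347373 for the second of 2 annotated starts of Mmp12, chr9:7445722-7445821 for Mmp3, chr9:7502242-7502341 for Mmp10, chr9:7558329-7558428 for Mmp8 and chr9:7571296-7571395 for Mmp27, all on the + strand.
Mmp13: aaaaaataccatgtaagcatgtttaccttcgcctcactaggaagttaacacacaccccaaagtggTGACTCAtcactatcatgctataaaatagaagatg
Mmp12: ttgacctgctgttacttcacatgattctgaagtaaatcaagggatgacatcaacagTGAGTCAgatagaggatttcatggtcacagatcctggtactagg
Mmp3: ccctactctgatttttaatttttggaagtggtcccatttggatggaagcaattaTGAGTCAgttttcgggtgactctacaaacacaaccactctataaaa
Mmp10: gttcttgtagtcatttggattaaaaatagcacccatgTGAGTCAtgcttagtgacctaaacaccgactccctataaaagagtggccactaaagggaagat
Mmp8: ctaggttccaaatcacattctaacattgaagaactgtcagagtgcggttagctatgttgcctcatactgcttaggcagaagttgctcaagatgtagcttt
Mmp27: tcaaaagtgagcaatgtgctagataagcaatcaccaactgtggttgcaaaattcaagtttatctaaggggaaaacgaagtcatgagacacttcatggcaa

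Counted from the start, the first base of the element lay at -35 in Mmp13, -44 in Mmp12, -46 in Mmp3 and -63 in Mmp10. The other start of Mmp12, at the start of the annotated gene, had none, and only the start with the element is printed. Mmp1a, Mmp1b and Mmp7, which did not reach the floor on any array, carried it as well, at -73 in Mmp1a, -93 in Mmp1b and -63 at 1 of 2 starts of Mmp7. Mmp8, Mmp27 and Mmp20 had no match in 250 bases. A match describes letters and not a bound site, and the part of the element in the values was not tested. Among 9 AP-1 and ETS factor genes measured, 1 was at least 2-fold higher with Dox than in 2WND, Etv4, at 6.78 in 2WND+2W+D and 5.20 in 2WND. The other 8 were within 2-fold in both directions. Fosl1, an AP-1 gene of the same list, had no probe with exactly 1 gene symbol and was not measured here. Of all genes 4.96% were higher and 5.37% lower by that much in the same comparison. Fos was 7.98, Jun 10.86 and Fosl2 10.48 with Dox, against 8.58 for Fos, 11.57 for Jun and 9.72 for Fosl2 in 2WND.

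Of the 15 genes higher with Dox, 4 encode ADAMTS proteases that cut versican or aggrecan. Adamts4, known as aggrecanase-1, was 4.41 in Day0, 5.18 in 2WND, 8.35 in 2WND+2W+D, 6.01 in 2WND+2W+D+2W-D and 6.77 in iPS. It was 3.17 higher on the log2 scale with Dox than in 2WND and 5.06-fold lower after withdrawal than with Dox. Adamts5, aggrecanase-2, was 4.16 in Day0, 7.33 in 2WND, 9.60 in 2WND+2W+D, 8.25 in 2WND+2W+D+2W-D and 4.99 in iPS. It was higher at both steps, at least 5.83-fold higher in 2WND than in Day0 and 4.85-fold higher with Dox than in 2WND.

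Adamts1, which cuts versican, was 8.64 in Day0, 8.20 in 2WND, 10.36 in 2WND+2W+D, 8.52 in 2WND+2W+D+2W-D and 5.81 in iPS. The sorted cells and the cultures without Dox lay within 0.44 of each other, and with Dox it was 4.49-fold higher than in 2WND. Adamts9, also a versican protease, was likewise highest with Dox, at 6.28 in Day0, 5.73 in 2WND, 7.77 in 2WND+2W+D, 6.03 in 2WND+2W+D+2W-D and 6.80 in iPS. Adamts15, a further versican protease, ran the opposite way, at 5.36 in Day0, 6.71 in 2WND, 5.32 in 2WND+2W+D, 7.21 in 2WND+2W+D+2W-D and 4.90 in iPS. It was 2.61-fold lower with Dox than in 2WND and 3.71-fold higher after withdrawal than with Dox.

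Adamts6 and Adamts10 act on fibrillin microfibrils and cell adhesions, and they differed in size of change. Adamts6 was 4.56 in Day0, 5.12 in 2WND, 8.41 in 2WND+2W+D, 5.71 in 2WND+2W+D+2W-D and 5.38 in iPS, 9.80-fold higher with Dox than in 2WND. Adamts10 was 6.14 in Day0, 6.31 in 2WND, 7.20 in 2WND+2W+D, 6.59 in 2WND+2W+D+2W-D and 5.21 in iPS, with no 2-fold step between successive samples of the culture series. Adamts7 and Adamts12 cut cartilage oligomeric matrix protein (Comp). Adamts12 was 3.93 in Day0, 6.27 in 2WND, 8.66 in 2WND+2W+D, 6.98 in 2WND+2W+D+2W-D and 5.40 in iPS, while Adamts7 was 4.96 in Day0, 6.13 in 2WND, 7.10 in 2WND+2W+D, 6.45 in 2WND+2W+D+2W-D and 6.17 in iPS. Both were highest with Dox, Adamts12 5.24-fold higher than in 2WND and Adamts7 by 0.97 on the log2 scale, just under 2-fold. Smooth muscle markers were high on the same array, with medians of 9.35 in 2WND+2W+D and 5.89 in 2WND. Fibroblast markers had medians of 10.26 in 2WND+2W+D and 9.30 in 2WND, and 7 of 12 were at least 2-fold higher with Dox. The part of both lists in the ADAMTS values was not tested.

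Adamts3 and Adamts14 trim the ends of procollagens. Adamts3 was 3.87 in Day0, 5.75 in 2WND, 5.37 in 2WND+2W+D, 5.08 in 2WND+2W+D+2W-D and 4.25 in iPS, at least 1.95-fold higher in 2WND than in Day0. Adamts14 was 2.20-fold higher with Dox than in 2WND on the probe used, but a further probe of the gene stayed under the floor on all arrays, between 4.31 and 4.57.

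The 4 inhibitors were all higher in 2WND than in Day0 and then separated. Timp1, an inducible inhibitor of many MMPs, was 3.47 in Day0, 7.91 in 2WND, 9.56 in 2WND+2W+D, 7.92 in 2WND+2W+D+2W-D and 9.09 in iPS. It was at least 8.77-fold higher in 2WND than in Day0 and 3.13-fold higher with Dox than in 2WND, and the withdrawn culture lay within 0.01 of 2WND. Timp3, which binds to the matrix, was 9.30 in Day0, 10.44 in 2WND, 10.86 in 2WND+2W+D, 9.87 in 2WND+2W+D+2W-D and 6.90 in iPS. Timp4 was 5.48 in Day0, 6.99 in 2WND, 4.58 in 2WND+2W+D, 6.70 in 2WND+2W+D+2W-D and 3.86 in iPS. It was at least 4.62-fold lower with Dox than in 2WND, the opposite of Timp1, while Timp2 and Timp3 were within 2-fold. Timp1, Timp3 and Timp4 lie within the synapsin genes Syn1, Syn3 and Syn2. Syn1 was 6.17 with Dox and 5.62 in 2WND, higher as Timp1 was but within 2-fold. Syn3 was 5.85 in 2WND and 7.33 in Day0, the opposite of Timp3. Syn2 was under the floor on all arrays.

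In iPS the family was mixed. Compared with Day0, 13 of the 44 genes were at least 2-fold higher (29.5%) and 4 were lower by that much (9.09%), where 13.9% of all genes were higher and 12.2% lower. Mmp3 was at least 50.3-fold, Timp1 at least 19.8-fold and Mmp2 14.6-fold higher in iPS. Adamts1 was 7.11-fold and Timp3 5.28-fold lower in iPS than in Day0. Adamts12, Adamts8 and Timp4 were under 2-fold when counted from the floor. Of the 12 fibroblast markers 11 were at least 2-fold higher in iPS than in Day0 (10 when counted from the floor), and their part was not tested. Compared with 2WND, 8 of the 44 genes were at least 2-fold higher in iPS (18.2%) and 17 were lower by that much (38.6%), where 11.3% of all genes were higher and 12.6% lower. The higher genes included Mmp9 by 4.45-fold and Mmp10 by 2.67-fold, which had their highest values in iPS. Mmp17 and Mmp25, which are tethered to the membrane by a lipid anchor, were also highest in iPS, at 7.03 and 6.62, against 5.50 and 5.10 in 2WND. The lower genes included Timp3 by 11.6-fold, Mmp2 by 6.50-fold and Mmp14 by 4.08-fold, while Adamts3, Adamts8 and Mmp16 were under 2-fold when counted from the floor. In the same comparison 8 of 12 fibroblast, 8 of 8 macrophage and 6 of 8 leukocyte markers were at least 2-fold lower in iPS. Counted from the floor, 7 macrophage markers were. The part of these markers was not tested.

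Of the 36 genes that reached the floor, 13 spanned less than 4-fold, with ranges between 0.37 and 1.98 and highest values between 5.21 and 7.20. Mmp28 and Adamts17 had no 2-fold step between successive samples of the culture series, and Adamts8, Adamts13 and Mmp24 complete the 13. Adamts16 was 5.50 in 2WND+2W+D and under the floor in 2WND and after withdrawal. Mmp16, a membrane-type MMP, was 5.92 in 2WND+2W+D and 4.83 in 2WND+2W+D+2W-D. The 8 genes under the floor were Mmp1a, Mmp1b, Mmp7, Mmp20, Mmp21, Adamts18, Adamts19 and Adamts20. Their ranges between arrays were 0.12 to 1.03, and no fold is given for them. Mmp7, matrilysin, is known from lung epithelium and stayed between 3.86 and 4.35.

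Other genes of the pathway were taken from lists. Plasmin, made from plasminogen by the activators Plau and Plat, is a classical activator of MMP proenzymes. Plau was 5.17 in Day0, 6.84 in 2WND, 8.19 in 2WND+2W+D, 7.28 in 2WND+2W+D+2W-D and 6.24 in iPS, and Plat 5.01 in Day0, 7.24 in 2WND, 9.53 in 2WND+2W+D, 7.96 in 2WND+2W+D+2W-D and 7.16 in iPS. Of the 4 genes of this list that reached the floor (Plau, Plat, the receptor Plaur and the inhibitor Serpinb2), 4 were at least 2-fold higher with Dox than in 2WND and 3 were lower after withdrawal than with Dox. Plasminogen itself, Plg, was under the floor on all arrays, between 3.91 and 4.43. Of 8 genes for activators and clearance 2 were higher in 2WND than in Day0, the convertase Pcsk5 and Lrp1, the endocytic receptor that takes up several MMPs and TIMPs, at 10.83 in 2WND and 6.53 in Day0. With Dox 3 were higher than in 2WND: Pcsk5, the convertase Pcsk6, and Reck, a membrane-anchored MMP inhibitor, at 9.54 in 2WND+2W+D and 8.01 in 2WND. Over all genes 6.36% were at least 2-fold higher in 2WND than in Day0 and 4.96% with Dox than in 2WND. After withdrawal 4.47% of all genes were lower by that much than with Dox.

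Of 8 matrix substrates 4 were at least 2-fold higher in 2WND than in Day0, beside 6.36% of all genes. Versican (Vcan) was 15.8-fold higher in 2WND than in Day0, where it was 5.01, and biglycan (Bgn) 13.04 in 2WND and 8.69 in Day0. The others were Dcn and Comp. Elastin (Eln) was 6.95 with Dox and 5.60 in 2WND, 2.55-fold higher. Aggrecan (Acan) was 5.32 with Dox and under the floor in 2WND. Among the 9 membrane-bound ADAM sheddases, relatives of the ADAMTS proteases, 2 were higher with Dox than in 2WND and 1 was lower. Of all genes 4.96% were higher and 5.37% lower in that comparison. Adam12 was 9.18 with Dox and 5.68 in 2WND, and Adam8, found on leukocytes, was 8.12 with Dox and 9.76 in 2WND. The ADAMTS-like proteins lack the protease domain. Of 6 such genes 2 were at least 2-fold higher in 2WND than in Day0, Adamtsl4 and Adamtsl5, and 1 was lower, Adamtsl1. Of all genes 6.36% were higher and 3.78% lower by that much. Adamtsl1 was 8.58 in Day0, 5.79 in 2WND, 9.18 in 2WND+2W+D, 7.16 in 2WND+2W+D+2W-D and 5.55 in iPS.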

How the data were processed

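Expression was measured on 5 Affymetrix mouse gene arrays, 1 per condition. The authors deposited 1 table of log2 expression values, summarised and normalised per probe with Affymetrix Expression Console. The summarisation algorithm, the version and the genome build are not given in the sources used here, and the log2 scale was taken from the range of the values, 1.25 to 13.58. These values were used without further scaling. Of 41345 probes 23521 had 1 gene symbol in the platform annotation, 1820 several and 16004 none. Probes with several or none were not used for any gene value, and the probe with the highest mean stood for each of the 22180 genes. All 44 genes matched a RefSeq gene of GRCm38.p6 by gene identifier.

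Differences were taken between 2 arrays, and a gene was counted where it differed by at least 2-fold. No test, replicate error or p-value exists with 1 array per condition, and the number of arrays limits the precision. The smallest spread between 2 arrays over all genes was 0.23 on the log2 scale (2WND+2W+D+2W-D minus 2WND, scaled from the median absolute deviation). The floor was the median of all values, 4.78. Genes named in full were those whose values, raised to the floor, spanned at least 2 log2 units, with up to 10 of the 13 smaller-range genes by highest value and, of the pathway and marker lists, the genes with the largest difference. Other genes of those lists and the genes beside or overlapping a family member were chosen after their values were seen. The genes and lists were chosen with earlier results of these data known. Alternatives were a 4-fold threshold, no filter, a filter at the 75th percentile of all values, values raised to the floor, arrays aligned on their medians, quantile normalisation and the mean over probes of a gene. The count steps were tested on simulated data. The work was done in Python 3.11.15 with pandas 2.3.3, numpy 2.4.6, matplotlib 3.10.9 and scipy 1.17.1.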

Additional observations from a re-analysis of the deposited data

Results flagged for a closer look

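One signal came from a probe that the comparisons do not use. The further probe of Mmp11 was 1.39 higher on the log2 scale in 2WND+2W+D+2W-D than in Day0, at 7.49 and 6.10. The probe used for Mmp11 was 8.67 in 2WND+2W+D+2W-D and 6.73 in Day0.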

How the results depend on the processing

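With 1 array per condition the precision is unknown, no array could be left out, and probes near the floor give only bounds. No paired analysis was possible because each condition has 1 array. At a 4-fold threshold, the counts of genes past it were 10 of 20 in 2WND against Day0, 9 of 19 in 2WND+2W+D against 2WND, 5 of 23 in 2WND+2W+D+2W-D against 2WND+2W+D, 0 of 1 in 2WND+2W+D+2W-D against 2WND, 9 of 17 in iPS against Day0 and 9 of 25 in iPS against 2WND. Over the 36 genes that reached the floor, the median differences were 1.10, 0.80, -0.85, 0.11, 0.47 and -0.69 in the same order. With no filter they were 0.63 for 2WND against Day0, 0.40 for 2WND+2W+D against 2WND, -0.39 for 2WND+2W+D+2W-D against 2WND+2W+D, 0.13 for iPS against Day0 and -0.27 for iPS against 2WND. With a filter at the 75th percentile the same medians were 1.35, 1.15, -1.12, 0.84 and -1.10. With values raised to the floor, the median of iPS against 2WND was -0.45. The other 36 counts of both directions together stayed within 1.5 times the reported ones, the other 25 medians moved by less than 0.23, and no direction turned. Of the separate counts at 2-fold, 1 moved further: with values raised to the floor, 2 genes and not 4 were lower in iPS than in Day0. Aligning the arrays on their medians shifted the median difference of all genes by up to 0.11.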
